A study of Copadichromis virginalis x Mchenga conophoros with 6 samples.

Results

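Castle building was compared with social isolation in the whole brain of male F1 hybrids between Copadichromis virginalis and the castle builder Mchenga conophoros, cichlid fishes of Lake Malawi. The comparison rests on 4 of the 6 libraries of the study, 2 labelled castle building and 2 labelled isolated, and on the 7307 genes that all 4 library tables list, of 13212 genes listed in any library. Of these genes 4192 have a symbol and 3115 an LOC identifier, and 7287 entered the tests. All animals were male and carried 1 genome of each parent species. The castle building animals had been through a paradigm aimed at that behaviour, and the isolated animals had been kept in social isolation. The labels give neither age, nor the time of sampling, nor whether a castle was built. They do not say that libraries of a group came from separate animals, so the p-values may reflect technical spread only.

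Males of the parent species make different spawning bowers: C. virginalis digs pits in the sand and M. conophoros piles sand into castles. In an F1 hybrid both alleles of a gene sit in the same cells and meet the same transcription factors, so a difference between their counts is the usual measure of differences in cis, that is, in regulatory sequence next to the gene. A change of the allelic ratio between behaviours is used as a measure of allele-specific regulation that depends on the animal's state. A change of the sum of both alleles is the measure of the gene's level. In bulk tissue, fewer cells of a type and less RNA per cell cannot be told apart.

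The pair of castle building libraries differed by less than sampling noise, and their mean was used as 1 sample. Over summed counts their chi-square per degree of freedom was 0.495, against 20.4 in the isolated pair, and 25.6% of the 8704 genes they share had identical counts on both alleles, against 0.184% in the isolated pair. Castle building therefore has n = 1, and every test assumes that this sample varies like the isolated ones. With this design a difference between behaviours and a difference between the animals sampled cannot be told apart. The castle building libraries held 2187643 and 2191037 allele-assigned counts, and the isolated libraries 2155680 and 2275100. The castle building tables list no gene with a total under 21, whereas the isolated tables go down to 12, and no table lists a gene with fewer than 6 counts on either allele. A gene that a table leaves out thus has an unknown count, not 0.

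Neuronal genes were well represented, with 8 of 12 neuron markers tested, among them snap25, elavl3 and syt1. Their summed level was 4338 CPM in castle building (both alleles summed, with TMM scaling), against 4704 and 4403 CPM in the isolated libraries, although stmn2 and nefm among them were over 4-fold lower in castle building. Of 16 microglia and leukocyte markers cd74 and csf1r were tested, with a summed level of 83.5 CPM in castle building and 151 and 176 CPM in isolation. Of 20 vascular and meningeal markers 13 were listed in any library and 6 were tested, at 175 CPM in castle building and 177 and 183 CPM in isolation. A further 2 were listed in both isolated libraries and in neither castle building library. No erythrocyte, pituitary, retina, pineal or skeletal muscle marker was listed in all 4 tables, and the part of other cells in the results below was not tested. Some were listed in other sets of the 6 libraries: 2 of erythrocytes, 4 of pituitary, 2 of retina and pineal and 3 of muscle. Their levels were therefore not compared.

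The first question was whether the balance of the alleles depends on the behavioural setting. Over all counts the balance was close in both groups: C. virginalis alleles held 52.2% in castle building, against 52.7% ± 0.0125 in isolation (SD, n = 2), a difference of -0.514 percentage points, or -1.01 without mitochondrially encoded genes. In the 2 pit digging libraries the share over all counts was 53.9 and 53.1%, a wider spread (SD 0.610) than in the isolated pair. The exact 95% binomial interval, which covers counting error only, was 52.13 to 52.26% for the first castle building library. With 1 sample against 2 an exact permutation test cannot go below p = 0.333. Among 3176 genes with at least 100 counts in every sample, the median share was 50.9% in castle building and 51.2 and 51.3% in the isolated libraries. A share within 5 points of equality was found for 71.5% of these genes in castle building, and for 68.7 and 68.8% in isolation. Gene by gene, the castle building share differed from the isolated libraries by a median of 4.14 and 3.90 points, and the isolated libraries from each other by 3.20 points. Gaps over 20 points separated castle building from them for 86 and 61 genes, against 37 genes between the isolated libraries.

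For 18 of 7287 genes (0.247%) the allelic ratio itself differed between castle building and isolation (edgeR's quasi-likelihood test, with a Benjamini-Hochberg adjusted p under 0.05), 11 with a higher and 7 with a lower C. virginalis share in castle building. Of the 18, 6 have LOC identifiers and 12 have symbols. At an unadjusted p under 0.05 there were 610 genes. DESeq2 on the same samples called 7 genes, 5 of them among the 18, and of the 12 with symbols it called cd74 and atp1b4. The edgeR calls rest on both isolated libraries. In a fit that also held the pit digging libraries 18 genes passed, 14 of them the same. In that fit 6 passed without isolated replicate 1, with tpt1 as the only one of the 12, and 4 without isolated replicate 2, with atp1b4 as the only one.

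**Figure D1:**
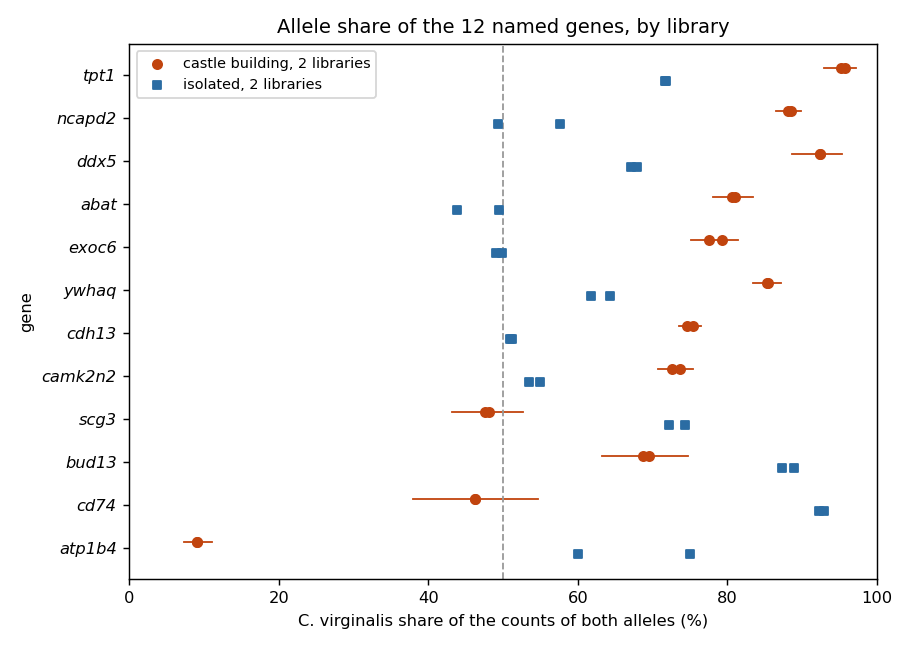
C. virginalis share of the counts of both alleles (%) for the 12 named genes, with 1 point per library and a line for the exact 95% binomial interval of the castle building sample. In each gene the castle building points (circles, upper) lie outside the isolated points (squares, lower), on the right for 8 genes and on the left for 4. The naming rule required this, and the castle building share lay outside the isolated range for 4683 of all 7287 genes tested (64.3%).

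Among genes of neuronal signalling, abat encodes the GABA transaminase, which breaks down the main inhibitory transmitter. Its C. virginalis share was 81.0 and 80.7% in the castle building libraries, against 49.4 and 43.9% in the isolated ones (log2 difference of the allelic ratio 2.27 ± 0.20 SE, adjusted p = 0.0194). Shares near or below 50% in isolation thus stood against a large excess of C. virginalis in castle building. The M. conophoros allele of abat was 3.74-fold lower in castle building, while the C. virginalis allele differed by 1.29-fold. The calmodulin kinase inhibitor camk2n2 had shares of 72.6 and 73.6% in castle building and of 53.4 and 54.9% in isolation (1.20 ± 0.12, adjusted p = 0.0294). In pit digging its shares were 70.4 and 61.9%, and with those libraries in the fit it did not pass (adjusted p = 0.142).

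Genes of the secretory route differed in both directions. The exocyst subunit exoc6, part of the complex that tethers vesicles to the plasma membrane, had 79.2 and 77.5% C. virginalis counts in castle building, against 49.1 and 49.9% in isolation (1.89 ± 0.21, adjusted p = 0.0313). Here the C. virginalis allele was 2.82-fold higher in castle building, and the M. conophoros allele 1.32-fold lower. The granin scg3, which sorts cargo into dense-core granules, had 47.6 and 48.1% in castle building, against 72.2 and 74.3% in isolation (-1.58 ± 0.19, adjusted p = 0.0441). The alleles of scg3 were thus near balance in castle building and skewed to C. virginalis in isolation. Its C. virginalis allele was 3.34-fold lower in castle building and its M. conophoros allele 1.12-fold lower.

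At the cell surface, cdh13 encodes T-cadherin, a cadherin anchored to the membrane by a lipid. It had 75.4 and 74.6% C. virginalis counts in castle building, against 50.9 and 51.2% in isolation (1.52 ± 0.17, adjusted p = 0.0313). Its level was also higher, at 1620 and 1591 CPM in castle building and 27.7 and 142 CPM in isolation, a difference for which the test of the sum gave an adjusted p of 0.14. The 2 isolated libraries themselves lay far apart in level, though not in share, and in pit digging the shares were 71.6 and 76.0%. A beta-type Na,K-ATPase subunit gene, atp1b4, gave the most negative difference among the 12. It had 87 C. virginalis and 875 M. conophoros counts in the first castle building library and 87 and 876 in the second, against 75 and 25 in isolated replicate 1 and 18 and 12 in replicate 2. The share was therefore 9.04 and 9.03% in castle building, against 75.0 and 60.0% in isolation (-4.59 ± 0.37, adjusted p = 0.0178). The M. conophoros allele carried the difference, 44.3-fold higher in castle building, while the C. virginalis allele was 1.74-fold higher. The isolated values rest on few counts, and in pit digging the shares were 75.8 and 73.8%.

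A further group acts on RNA, translation and chromosomes. The gene tpt1 encodes the translationally controlled tumour protein. Its C. virginalis share was 95.2 and 95.7% in castle building, against 71.6 and 71.8% in isolation (3.03 ± 0.22, adjusted p = 0.0178). Both alleles were lower in castle building, the M. conophoros allele by 18.6-fold and the C. virginalis allele by 2.25-fold. The castle building M. conophoros counts of tpt1 were few, at 19 and 17. The RNA helicase ddx5 had 92.5% in each castle building library, against 67.8 and 67.1% in isolation (2.55 ± 0.27, adjusted p = 0.0313), with the M. conophoros allele 8.32-fold lower in castle building. There too the M. conophoros counts were few, at 20 in each castle building library. The splicing protein bud13 went the other way, with 68.7 and 69.5% in castle building and 87.3 and 88.9% in isolation (-1.72 ± 0.19, adjusted p = 0.0313). With pit digging in the fit, where its shares were 67.4 and 80.7%, bud13 did not pass (adjusted p = 0.238). The condensin subunit ncapd2, which compacts chromosomes, had 88.1 and 88.5% in castle building, against 49.3 and 57.6% in isolation (2.74 ± 0.26, adjusted p = 0.0227). Each of its alleles was higher in castle building, by 19.7-fold for C. virginalis and by 2.88-fold for M. conophoros.

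The last of the named genes are an adaptor and an immune gene. The phosphoserine-binding adaptor ywhaq had 85.5 and 85.3% C. virginalis counts in castle building, against 64.3 and 61.7% in isolation (1.78 ± 0.16, adjusted p = 0.0194), while its summed level was close in all libraries, at 654 CPM in each castle building library and 710 and 745 CPM in isolation. The invariant chain gene cd74 serves antigen presentation on MHC class II. It had 46.3% in each castle building library and 92.3 and 92.9% in isolation (-3.86 ± 0.29, adjusted p = 0.0178). In pit digging its shares were 91.8 and 58.8%, and with those libraries in the fit it did not pass (adjusted p = 0.390). The microglial receptor csf1r had 13.4 and 13.0 CPM in castle building, against 35.1 and 44.8 CPM in isolation, and the part of microglial content in the cd74 result was not tested. Among the LOC genes, LOC101466690 was at 87.6 and 87.9% in castle building and 54.8 and 55.1% in isolation, and LOC101468439 at 37.1 and 35.6% in castle building and 92.1 and 96.4% in isolation.

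**Figure D2:**
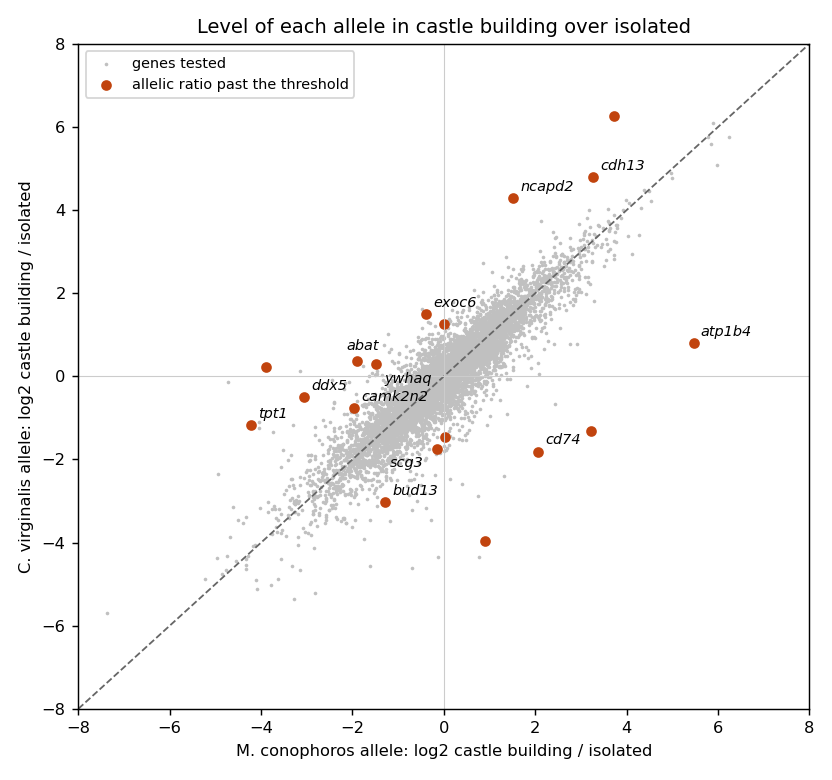
Log2 difference between castle building and isolation of the M. conophoros allele (horizontal) and the C. virginalis allele (vertical), for all 7287 genes tested (grey) and the 18 whose allelic ratio passed (coloured, named where they have a symbol). Genes on the dashed diagonal have equal differences on both alleles, and the coloured points lie off it, with atp1b4 far to the right. The test that picked the coloured genes is of this inequality, so their place off the diagonal was built in.

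Taking each allele by itself with a 2-fold limit, 6 of the 18 genes differed in the M. conophoros allele alone, 5 in the C. virginalis allele alone, 5 in both in the same direction and 2 in opposite directions. The gene cd74 is among the last, with its C. virginalis allele 3.50-fold lower and its M. conophoros allele 4.16-fold higher in castle building. The neuronal stathmin stmn2 just missed the threshold, with 44.0% in castle building against 75.1 and 80.4% in isolation (adjusted p = 0.0561). So did the GABA-synthesising enzyme gad2, with 65.2% against 49.1 and 51.1% (adjusted p = 0.0718). The myelin protein mpz was also close, with 63.6% in castle building against 53.3 and 53.2% in isolation (adjusted p = 0.0645).

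In the gene lists, calls of the allelic ratio were single genes, to be read beside the 0.247% called over all genes. The GABA list had 1 of 15 tested members (abat), synaptic vesicle and exocytosis 1 of 31 (exoc6), synaptic adhesion and axon guidance 1 of 61 (cdh13) and chromatin 1 of 67 (ncapd2). Translation had 1 of 31 (tpt1), splicing and RNA binding 1 of 37 (ddx5), granins and neuropeptides 1 of 15 (scg3), and ion pumps 1 of 12 (atp1b4). No member passed among 13 glutamate receptor and auxiliary subunit, 23 ion channel, 22 postsynaptic scaffold, 8 immediate early or 9 steroid and thyroid hormone genes. Nor did any among 12 myelin, 10 astroglial, 10 clock, 42 trafficking or 76 ubiquitin and proteasome genes. The median log2 difference of the lists with at least 5 tested members was between -0.26 (radial glia, astroglia and ependyma) and 0.20 (glutamate receptors and auxiliary subunits), beside -0.02 over all genes.

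The second question was whether gene levels, taken as the sum of both alleles, differ between castle building and isolation. The castle building sample lay far from both isolated libraries: the median gene differed from them by 1.76-fold and 1.71-fold, against 1.24-fold between the isolated libraries. Gaps over 4-fold were found for 12.3 and 11.4% of genes between castle building and the isolated libraries, against 3.17% within the isolated pair. No gene passed the test on 3 samples (0 of 7287, or 0%; smallest adjusted p = 0.0908; 2250 genes at an unadjusted p under 0.05; edgeR). With the same samples DESeq2 called 573 genes. With pit digging in the fit edgeR called 460 of 6844 genes, 167 higher (2.44%) and 293 lower (4.28%) in castle building, but 0 when either isolated library was left out. Sums are therefore given as values. Genes were counted when over 4-fold from the isolated mean and outside the isolated range, a limit chosen after the values were seen. Since the mean is of 2 libraries, a high value in 1 of them can make a gene count as lower. By that count 343 genes (4.71%) were higher and 396 (5.43%) lower in castle building. Genes that a library left out are not in these counts. The smallest listed total was 21 in castle building and 12 in isolation, so higher and lower genes are not cut off alike.

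**Figure D3:**
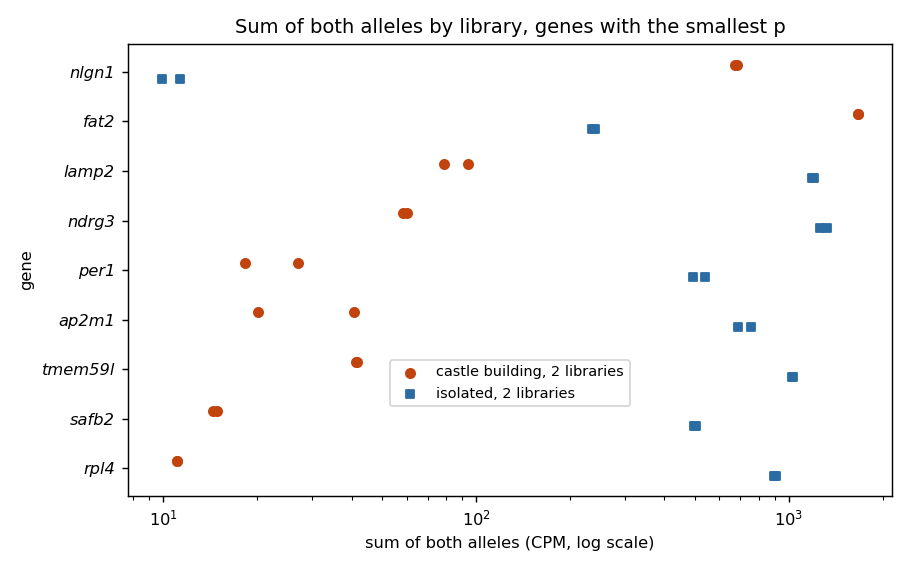
Sum of both alleles in CPM on a log scale for 9 of the 10 genes with a symbol and the smallest p, with circles (upper) for the 2 castle building libraries and squares (lower) for the 2 isolated libraries. The groups lie apart in each gene, with nlgn1 and fat2 higher in castle building and the other 7 lower. These genes were picked by their p, and the castle building sum lay outside the isolated range for 5944 of all 7287 genes tested (81.6%).

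Adhesion genes were among those with the smallest p and a higher level in castle building. The postsynaptic adhesion gene nlgn1 had 682 and 673 CPM in castle building, against 9.94 and 11.3 CPM in isolation (log2 difference 5.98 ± 0.23 SE, adjusted p = 0.0908 in edgeR). The isolated values of nlgn1 rest on few reads, with 6 counts on the C. virginalis and 13 on the M. conophoros allele in replicate 1, and 14 and 9 in replicate 2. The giant cadherin gene fat2 had 1657 and 1659 CPM in castle building, against 235 and 240 CPM in isolation. With pit digging in the fit fat2 passed (adjusted p = 0.0359) and nlgn1 did not (0.0928).

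The list of synaptic adhesion and axon guidance followed this direction: 9 of 61 tested members were over 4-fold higher in castle building (14.8%) and 0 lower. Over all genes 4.71% were higher and 5.43% lower. The median log2 difference of the list was 0.73, beside -0.04 over all genes. The orphan adhesion receptor adgrb3 had 1091 and 1086 CPM in castle building, against 128 and 145 CPM in isolation. The netrin receptor unc5c had 303 and 281 CPM in castle building, against 51.8 and 54.6 CPM in isolation. Of 13 glutamate receptor and auxiliary subunit genes 2 were over 4-fold higher (15.4%) and 0 lower. The kainate receptor grik3 had 98.9 and 91.2 CPM in castle building, against 8.37 and 9.84 CPM in isolation. With pit digging in the fit adgrb3 and unc5c (adjusted p = 0.0359 each) and grik3 (0.0409) passed.

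Lists of chromatin, hormone signalling and postsynaptic scaffold genes also had more members over 4-fold higher than lower, beside 4.71% higher and 5.43% lower over all genes. Of 67 chromatin genes 8 were over 4-fold higher in castle building (11.9%) and 2 lower (2.99%), with a median of 0.14. Among them the remodeller chd7 had 250 and 245 CPM in castle building and 45.0 and 31.5 CPM in isolation, and the Polycomb subunit pcgf3 had 397 and 404 CPM in castle building and 87.9 and 109 CPM in isolation. Of 9 steroid and thyroid hormone genes 2 were over 4-fold higher (22.2%). The mineralocorticoid receptor nr3c2 had 278 CPM in each castle building library, against 54.9 and 49.2 CPM in isolation. Of 22 postsynaptic scaffold genes 1 was over that limit (4.55%, near the share over all genes), with a median of 0.52. It was shank1, with 532 and 522 CPM in castle building and 114 CPM in each isolated library.

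The translation list lay on the other side. Of 31 ribosomal proteins and translation factors 0 were over 4-fold higher and 6 lower in castle building (19.4%), with a median of -0.52. Over all genes 4.71% were higher and 5.43% lower. The large-subunit protein gene rpl4 had 11.0 CPM in each castle building library, from 17 C. virginalis and 6 M. conophoros counts, against 909 and 894 CPM in isolation (log2 difference -6.34 ± 0.22 SE). The small-subunit gene rps3 had 16.3 CPM in each castle building library, against 185 and 158 CPM in isolation. Both genes thus lay near the bottom of what the castle building tables list, and far above it in isolation. With pit digging in the edgeR fit rpl4 passed (adjusted p = 0.0359) and rps3 did not (0.196). Whether the informative sites and the annotation were the same for all libraries is not given, and folds of the sum hold only if they were. Of 37 splicing and RNA-binding genes 0 were over 4-fold higher and 5 lower (13.5%), with a median of -0.89. The scaffold attachment factor safb2 had 14.9 and 14.4 CPM in castle building and 496 and 506 CPM in isolation. The splicing factor sf1 had 23.0 CPM in each castle building library and 171 and 164 CPM in isolation.

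In vesicle traffic and secretion the lists differed. Of 42 coat, adaptor and endosome genes 0 were over 4-fold higher and 6 lower (14.3%), with a median of -0.62. Over all genes 4.71% were higher and 5.43% lower. The clathrin adaptor subunit ap2m1 had 40.8 and 20.2 CPM in castle building, a gene in which the libraries counted as 1 sample lay apart, against 690 and 755 CPM in isolation. Of the genes with the smallest p that are in no list described here, the lysosomal membrane gene lamp2 had 79.2 and 94.6 CPM in castle building and 1189 and 1202 CPM in isolation. Likewise ndrg3 had 58.6 and 60.0 CPM in castle building and 1328 and 1257 CPM in isolation, and tmem59l had 41.3 and 41.8 CPM in castle building and 1032 and 1025 CPM in isolation. The granins chga and chgb, matrix proteins of dense-core granules, made up 2 of the 3 genes in their list over 4-fold lower (20% of 15). The other, ptprn, had 17.8 CPM in castle building, against isolated values far apart at 42.9 and 311 CPM. In this list 6 members lay above their isolated level and 9 below, with a median of -0.76. The level of chga was 97.9 and 102 CPM in castle building, against 976 and 902 CPM in isolation. For chgb it was 28.3 and 29.3 CPM in castle building, against 655 and 854 CPM in isolation. Among 31 vesicle and exocytosis genes 2 were over 4-fold higher (6.45%) and 5 lower (16.1%), with a median of -0.17. The plasma membrane SNARE stx1a had 150 and 152 CPM in castle building and 14.7 and 12.3 CPM in isolation. The synapsin syn2 had 236 and 221 CPM in castle building and 1438 and 1354 CPM in isolation, and the vesicular glutamate transporter slc17a6 had 114 and 113 CPM in castle building and 688 and 594 CPM in isolation.

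Calcium signalling and channel genes come next. Of 13 calmodulin, calcineurin and CaM kinase genes 0 were over 4-fold higher and 4 lower (30.8%) in castle building, with a median of -1.11. The calmodulin gene calm3 had 110 and 107 CPM in castle building and 532 and 654 CPM in isolation, but calmodulin genes encode near-identical proteins and may share reads. Of 23 ion channel genes, mostly of voltage-gated channels and with auxiliary subunits among them, 1 was over 4-fold higher (4.35%) and 2 lower (8.70%). Over all genes 4.71% were higher and 5.43% lower. The potassium channel kcnc1 had 37.0 and 38.4 CPM in castle building and 352 and 353 CPM in isolation, whereas the calcium channel subunit cacnb2 had 254 CPM in each castle building library and 44.0 and 52.7 CPM in isolation. Of 15 GABA genes 2 were over 4-fold lower (13.3%). The receptor subunit gabra5 had 120 and 119 CPM in castle building and 757 and 700 CPM in isolation.

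Of 10 tested clock genes 0 were over 4-fold higher and 2 lower (20%) in castle building. Over all genes 4.71% were higher and 5.43% lower. The median was -0.93, and 8 of the 10 lay below their isolated level, beside 3752 of 7287 over all genes. The clock and immediate early gene per1 had 26.9 and 18.2 CPM in castle building, against 494 and 538 CPM in isolation (log2 difference -4.51 ± 0.24 SE), and with pit digging in the fit it did not pass (adjusted p = 0.104). The labels do not give the hour of sampling. Of 8 tested immediate early genes 1 was over 4-fold higher (12.5%) and 2 lower (25%), with a median of -0.30. The higher gene, btg1, had 277 CPM in castle building and 63.8 and 69.4 CPM in isolation. The lower genes were per1 and egr1. The level of egr1 was 79.7 CPM in castle building, against 587 and 158 CPM in isolation, so its place in the count rests largely on isolated replicate 1. Of these 8, npas4, a transcription factor induced by neuronal activity, had 89.8 CPM in castle building, against 54.9 and 7.38 CPM in isolation. The isolated libraries of npas4 thus differed from each other more than castle building differed from the higher of them.

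Of 12 myelin genes 7 lay below their isolated level and 5 above, with a median of -0.13. The myelin protein mpz had 832 and 836 CPM in castle building, against 5514 and 5366 CPM in isolation, the only one of 12 myelin genes over 4-fold. Of 10 astroglial genes 2 were over 4-fold lower (20%) and 0 higher, beside 5.43% lower and 4.71% higher over all genes. In this list 8 of 10 lay below their isolated level, beside 3752 of 7287 over all genes, and the median was -0.50. The intermediate filament gene vim had 53.8 CPM in castle building and 176 and 279 CPM in isolation, and the lipid transfer gene pltp had 47.5 and 40.3 CPM in castle building and 94.7 and 314 CPM in isolation. The glutamate transporter slc1a2, on the other side, had 4199 CPM in castle building and 2531 and 1372 CPM in isolation. The mitochondrially encoded COX1 had 1417 and 1438 CPM in castle building, against 9505 and 6918 CPM in isolation, and its part in the other results was not tested.

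**Figure D4:**
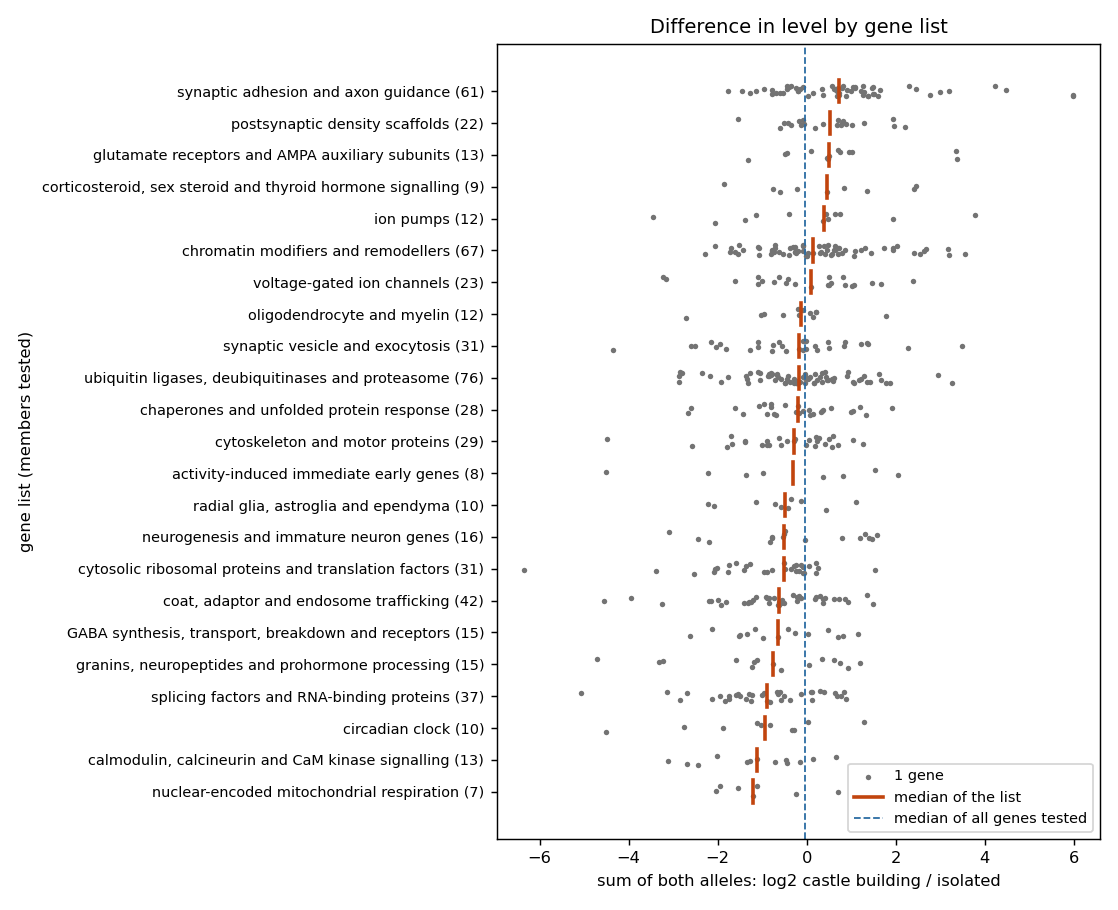
Log2 difference of the sum of both alleles between castle building and isolation, 1 point per tested member, for each gene list with at least 5 tested members (number in parentheses). Bars mark the list medians, from 0.73 for synaptic adhesion and axon guidance at the top to -1.21 for nuclear-encoded respiration at the bottom, and the dashed line the median of -0.04 over all genes.

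Large differences in level were shared by the alleles. Of the 343 genes over 4-fold higher in castle building, 341 had both alleles over 2-fold higher, and of the 396 lower genes 390 had both over 2-fold lower. The alleles make up the sum by which these genes were picked, so high counts at this laxer limit were largely built in. The allelic ratio passed for 4 of the 343 and 2 of the 396, beside 18 of 7287 (0.247%) over all genes. Across all 7287 genes the log2 differences of the alleles had a Pearson r of 0.909, given as a description, since the alleles of a gene share the library and its depth. They had opposite signs for 960 genes.

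Some genes were listed in the tables of a single group. Both castle building tables and neither isolated table listed 571 genes, and 112 of these reached a mean total of 100. The sarcoglycan gene sgcz had 1213 C. virginalis and 1113 M. conophoros counts in the first castle building library and 1243 and 1111 in the second. Both isolated tables and neither castle building table listed 1783 genes, and 1555 of these reached a mean total of 21 and 371 a mean total of 100. Among these the ribosomal protein gene rpl8 had 1445 and 1473 counts on the C. virginalis and M. conophoros alleles in isolated replicate 1, and 920 and 840 in replicate 2. Conversely rpl9 was listed in castle building and not isolation, with counts of 570 and 577 in the first library and 565 and 569 in the second. Of the 68 translation genes listed in any library, 7 were listed for castle building and not isolation, and 13 for isolation and not castle building. Over all 13212 genes listed in any library these counts were 571 and 1783. Such genes have no share or fold here, since a missing gene has no known count.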

How the data were processed

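Trizol was used to extract brain RNA for standard Illumina libraries, per the labels' protocols. For each library the authors deposited counts of reads per gene on each parental allele, and the log2 ratio of the alleles, per the file headers. The submitters' processing notes name STAR 2.4. Build, annotation, informative sites, allele counter and strand: not given in the sources used here. A sum of both alleles holds only reads over informative sites, and genes with copies can share reads. The deposited table of the whole series holds the 6848 genes listed in all 6 libraries, with values equal to the library tables, which were used.

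Genes with a mean total of at least 20 over the 3 samples entered glmQLFit and glmQLFTest of edgeR 4.0.16 (R 4.3.3), leaving 1 residual degree of freedom. The allelic model gave each sample its own intercept and each group its own allele coefficient, and sums used TMM. Biological coefficients of variation were 10.9% (allelic) and 33.9% (sums). Benjamini-Hochberg adjustment ran over all genes tested, with a threshold of 0.05. Totals of 2155680 to 2275100 counts set the counting precision. DESeq2 1.42.0, other filters and scalings, a replicate block and left-out libraries were alternatives. The procedure was tested on simulated data.

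Genes are named if they have a symbol, passed, reached a mean total of 50 and lay outside the isolated range. Where fewer than 10 passed, the 10 with the smallest p were taken, and up to 4 per list with the smallest p in each fit. A few genes taken this way are not reported here. The comparison and the gene lists were chosen with earlier results of these data known.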

Additional observations from a re-analysis of the deposited data

Results flagged for a closer look

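Of the 12 genes with a symbol whose allelic ratio differed, 5 had castle building and isolated shares on different sides of 50%. The test is of the difference in ratio, not of the change of side, and 2 of the 6 LOC genes also lay on different sides. For cd74 the log2 difference of the allelic ratio was -3.86, with 46.3% C. virginalis counts in castle building and 92.3 and 92.9% in isolation. For atp1b4 it was -4.59, with 9.03% in castle building and 75.0 and 60.0% in isolation. For scg3 it was -1.58, with 47.8% in castle building and 72.2 and 74.3% in isolation. For abat it was 2.27, with 80.9% in castle building and 49.4 and 43.9% in isolation. For exoc6 it was 1.89, with 78.4% in castle building and 49.1 and 49.9% in isolation. The exact 95% binomial intervals of the castle building sample, 38.0 to 54.7% for cd74 and 43.1 to 52.6% for scg3, include 50%. They cover counting error only, so a favoured allele was neither shown nor excluded there. The isolated shares of exoc6 lie close to 50%. For atp1b4 the castle building share lies far below 50%, but the 60.0% of isolated replicate 2 rests on only 18 and 12 counts.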

How the results depend on the processing

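Allelic calls numbered 18 (11 higher, 7 lower). With castle building as 2 libraries they were 248 (104 and 144), and with a replicate block on top 724 (279 and 445). Deviations of same-numbered libraries correlated at -0.0109 for sums and -0.00107 for ratios. Since counting noise alone could account for the deviations on the castle building side, whether the labels' numbers pair the samples stayed undecided. DESeq2 gave 7 (2 and 5), missing genes as 0 gave 10 (7 and 3) and TMM over single alleles 28 (15 and 13). Leaving out a library gave 4 to 22 (1 to 13 higher, 3 to 10 lower), with 4 to 6 where it was an isolated one, in the fit with pit digging (1 to 3 higher and 3 lower). DESeq2 called 2 of the 12 named genes, cd74 and atp1b4. Sum calls, 0 here, were 460 with pit digging in the fit (167 and 293), 3656 with castle building as 2 libraries (1671 and 1985), 2472 with the replicate block (1111 and 1361), 573 with DESeq2 (232 and 341) and 924 with DESeq2 and pit digging (374 and 550). The last was chosen after seeing the data. They were 0 without either castle building library, and 0 in place of the 460 without either isolated one in the fit with pit digging; a fit of the 3 samples without an isolated library has no residual degrees of freedom. The difference in the C. virginalis share of all counts was -0.648 points over genes in all 4 tables and -1.01 without mitochondrially encoded genes. Missing genes as 0 moved the median log2 sum over all genes to -0.20. Signs turned for the cd74 sum (2.03) and the dcn sum (0.011) on M. conophoros counts alone, and, with a library left out, for the ratio of hsd17b4 (-0.13 to 0.36 without a castle building library, -0.061 to 0.38 without an isolated one) and of egr1 (-0.78 to 0.28 without an isolated one). The causes were not tested. With 1 castle building sample, its own spread is unknown.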
